A study of Mus musculus with 24 samples.

Results

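The Kit gate within the Mac-low cells of a mouse acute myeloid leukaemia was examined by comparing 5 RNA-seq libraries of sorted MacLowKit+Sca1- cells with 5 libraries of sorted MacLowKit-Sca1- cells, 10 of the 24 libraries of the series. The 10 were taken by the gate written in the sample labels and in the names of the value columns, without use of any measured value. All groups shared the genotype NRASG12V/Mll-AF9, a constitutively active NRAS together with the fusion of the histone methyltransferase MLL to AF9, on the strain background (FVB/n X C57/BL/6J) F1. Leukaemia cells came from spleens and were sorted on 3 surface proteins, Mac-1, which is integrin alpha M encoded by Itgam, Kit, the receptor for stem cell factor, and Sca-1, encoded by Ly6a. The other groups were MacLowKit+Sca1+ (4 libraries), MacHigh (5) and unsorted cells (5), so the series had no group of a genotype without the 2 oncogenes. Whether every cell in a library carried them is not given. The labels used here give no promoter for the transgenes, no age and no animal for a library. Whether the replicates were different animals is not stated, and the p-values below therefore reflect only how far these libraries spread, which may be technical variation. Below, the 2 compared groups are called Kit+Sca1- and Kit-Sca1-.

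Kit is the receptor tyrosine kinase for stem cell factor and is carried by blood stem cells, by myeloid progenitors and by mast cells. As neutrophil precursors mature they make granule proteins in waves: primary granule enzymes first, secondary granule proteins next, and gelatinase granule and secreted proteins last, under transcription factors that include Gfi1 and the C/EBP family. Monocytes and macrophages instead need the receptor of macrophage colony-stimulating factor, Csf1r, and factors such as Irf8 and Klf4. The series asks which sorted leukaemia cells carry a self-renewal signature, and the comparison here asks what separates Mac-low cells with surface Kit from those without it.

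The promoters of 3 genes among the largest differences, with the largest rise after Kit itself and 2 of the largest falls, are shown because each holds the 8-base pattern TTGCNNAA, written for C/EBP binding, on one strand or the other. The windows run from 250 bases before to 50 bases after the start that the RefSeq promoters use on GRCm38.p6, which for Fcnb lies inside the outermost end of the annotated gene, and read 5′ to 3′ on the gene's strand. Capitals mark TTGCNNAA on either strand and, in Mmp8, also GAGGAAGT, a pattern for PU.1, on the opposite strand. Fcnb, ficolin B, a lectin of neutrophil precursor granules, lies at chr2:28084829-28085128 on the minus strand, Mmp8, neutrophil collagenase, at chr9:7558179-7558478 on the plus strand and Retnlg, a resistin-like secreted protein of neutrophils, at chr16:48872358-48872657 on the plus strand.
Fcnb: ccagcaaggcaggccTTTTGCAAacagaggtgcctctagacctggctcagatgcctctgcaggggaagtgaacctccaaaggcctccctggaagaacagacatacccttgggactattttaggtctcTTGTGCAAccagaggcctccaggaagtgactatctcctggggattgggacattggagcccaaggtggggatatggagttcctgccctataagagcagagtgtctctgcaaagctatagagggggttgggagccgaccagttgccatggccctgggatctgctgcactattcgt
Mmp8: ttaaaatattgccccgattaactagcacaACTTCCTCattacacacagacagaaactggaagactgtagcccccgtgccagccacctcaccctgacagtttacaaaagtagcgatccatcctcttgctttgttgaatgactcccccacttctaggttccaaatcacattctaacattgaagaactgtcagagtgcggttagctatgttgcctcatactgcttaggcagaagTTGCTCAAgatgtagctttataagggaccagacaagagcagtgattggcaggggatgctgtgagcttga
Retnlg: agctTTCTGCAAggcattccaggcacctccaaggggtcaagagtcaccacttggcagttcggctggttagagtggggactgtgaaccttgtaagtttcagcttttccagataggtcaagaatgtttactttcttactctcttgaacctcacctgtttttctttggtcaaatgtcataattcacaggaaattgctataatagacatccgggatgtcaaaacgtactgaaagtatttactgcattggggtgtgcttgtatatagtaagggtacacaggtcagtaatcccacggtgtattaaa

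Fcnb held 2 matches to TTGCNNAA, and Mmp8 and Retnlg 1 each. Among all 32851 RefSeq promoter windows of the same length, 10.8% held TTGCNNAA, 3.2% held GAGGAAGT and 1.45% held AACNGTTA or TAACNGTT, a pattern for Myb. Of the 12 genes with the largest rises 8 had an entry, with 10 windows, of which 1 held TTGCNNAA, 2 held GAGGAAGT and 0 held the Myb pattern. Of the 12 genes with the largest falls 9 had an entry, also with 10 windows, of which 3 held TTGCNNAA (Mmp8, Retnlg and Trem2), 1 held GAGGAAGT and 0 held the Myb pattern. Matches are a description of these windows and not of binding.

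Values were FPKM, which scale fragment counts by gene length and by the size of the library, for 23361 gene rows. Read counts were not analysed here, so the depth of a library and the counting error of a value are unknown. Rows with at least 1 FPKM in at least 4 of the 24 libraries numbered 11599. Of these, 35 were at 0.001 FPKM, the value that stands for 0 in the table, in all 5 Kit+Sca1- libraries although some other group had at least 5 FPKM throughout, and they were treated as missing, leaving 11564 genes for the comparison. The missing rows include abundant granule genes, so the primary granule enzymes Mpo, Elane, Prtn3 and Prss57, the calprotectin subunits S100a8 and S100a9, and Ngp and Chi3l3 could not be compared. Of the 35, 29 lie in one stretch of chromosome 10, between 79704358 and 80320548 (mm10), with Elane, Prtn3 and Prss57 among them, where 31 rows passed the filter. A failed estimate over that stretch was not tested. Rows at 0.001 FPKM in some libraries of a compared group and at 5 or more in another, mostly small RNAs, were kept. There were 88 such cases, counted per row and group, with Rpl24, Rps12 and Stfa2 among them. In Kit-Sca1- cells S100a8 stood at 17896 ± 5251 FPKM and Ngp at 3863 ± 1483 (SD, n = 5). The FPKM of all rows summed to 473636 ± 41796 in Kit+Sca1- libraries and 557152 ± 63916 in Kit-Sca1- libraries (SD, n = 5 each), and the 35 missing rows held 41502 ± 12571 of the Kit-Sca1- sum. Rows at 1 FPKM or more numbered 10177 to 10524 in Kit+Sca1- and 10590 to 10722 in Kit-Sca1-.

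The 10 libraries separated by gate. On the first principal component of log2(FPKM + 1), with 51% of the variance, Kit+Sca1- libraries lay between 29.4 and 53.3 and Kit-Sca1- libraries between -43.4 and -32.1. Correlations across genes were 0.942 to 0.969 between Kit+Sca1- libraries, 0.949 to 0.970 between Kit-Sca1- libraries and 0.872 to 0.919 between the gates. The second component, with 12.1%, partly followed the prefix of the sample names: the library named L lay highest and 11 above 26 and R in both groups, while the order of 26 and R differed. Libraries that shared a prefix (11, 26, L and R) deviated together from their group means, with correlations of 0.280 to 0.487 in all 4 pairs.

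**Figure D1:**
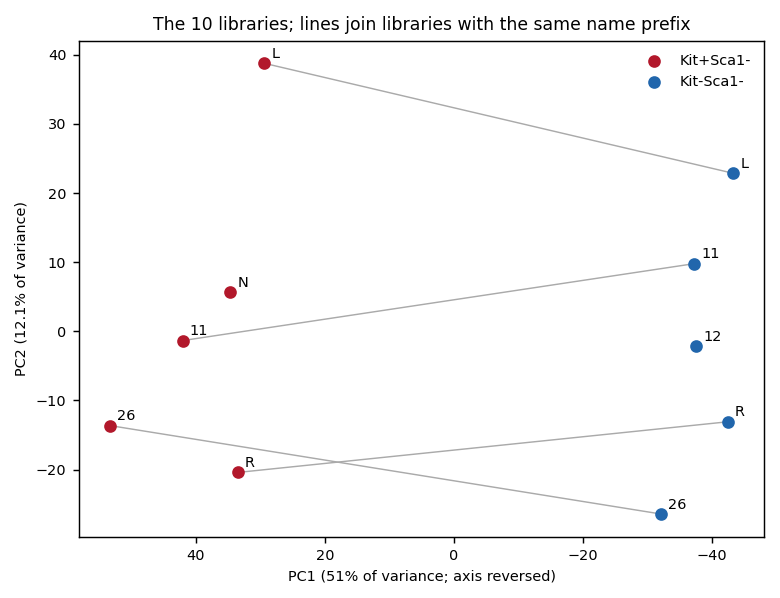
Principal components of the 10 libraries from centred log2(FPKM + 1), in arbitrary units, with the share of variance on each axis and the first axis reversed. Points are libraries with their name prefix, and lines join libraries with the same prefix. The gates do not overlap on the first component, and the prefixes keep roughly the same order on the second.

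The level of Kit followed the gate. Kit (chromosome 5, 75574987 to 75656722, mm10) was at 54.1, 38.7, 36.8, 37.6 and 31.7 FPKM in Kit+Sca1- libraries 1 to 5, against 0.643, 0.572, 0.744, 0.487 and 0.895 FPKM in Kit-Sca1- libraries 1 to 5. The groups do not overlap, and the difference of mean log2(FPKM + 1) was 4.59 ± 0.14, which checks the sort and is no finding. Mac-1 was not part of this contrast: Itgam was at 199, 396, 137, 182 and 422 FPKM in Kit+Sca1- cells and 203, 296, 382, 158 and 295 FPKM in Kit-Sca1- cells. These ranges overlap almost wholly (log2 difference -0.07 ± 0.27, exact two-sided permutation p = 0.857, adjusted 0.857 over the 2 markers). Ly6a was low in both, at 0.254 to 1.29 FPKM in Kit+Sca1- and 0.466 to 1.74 in Kit-Sca1- (log2 difference -0.06 ± 0.21, exact permutation p = 0.817, adjusted 0.857). With 5 libraries against 5, the smallest p that this permutation test can give is 0.00794.

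The table also holds a row for each oncogene, which were singled out after their values were seen. The row named hNRASG12V-EE was at 283, 262, 355, 317 and 221 FPKM in Kit+Sca1- libraries and 456, 442, 480.2, 439 and 470.3 FPKM in Kit-Sca1- libraries. Every Kit+Sca1- library stood below every Kit-Sca1- library (log2 difference -0.69 ± 0.11, limma adjusted p = 1.43e-05), and the difference kept its direction and call in each of the 24 alternative settings. Both Kit+ groups were low for this row, with 237 ± 34.4 FPKM in Kit+Sca1+ cells, and MacHigh cells were highest at 595 ± 42.4 FPKM. The row named Mll-AF9 was at 9.82, 11.9, 8.31, 7.82 and 8.98 FPKM in Kit+Sca1- libraries and 7.5, 7.37, 9.16, 7.81 and 7.37 FPKM in Kit-Sca1- libraries, with overlap (log2 difference 0.22 ± 0.11, limma adjusted p = 0.0992). It was called higher in Kit+Sca1- with the name prefix as a block (adjusted p = 0.00344), after rescaling to a common FPKM sum and without Kit+Sca1- replicate 4 (adjusted p 0.00344 to 0.31 over all alternatives). Which sequence the reads of these rows matched is not given in the sources used here.

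Of the 11564 genes tested, 5787 were called at an adjusted p under 0.05 in limma with Benjamini-Hochberg adjustment (50.0% of all tested), 2779 higher in Kit+Sca1- (24%) and 3008 lower (26%). Log2 differences are of mean log2(FPKM + 1), given with their standard error, and shrink the change where FPKM is low. By a log2 difference of 1 or more, 526 genes were higher (4.55%) and 780 lower (6.75%), and by 2 or more, 102 were higher (0.882%) and 188 lower (1.63%). The values of the 2 groups did not overlap for 3311 genes (28.6%). The median difference over all genes was -0.02. The split depends on scaling: 48.02% of the calls were higher as deposited, against 71.9% (4280 higher, 1673 lower) when every library was rescaled to a common FPKM sum, which moved the median by 0.22. Differences of this size or less cannot be given a direction that holds under both scalings. The common sum includes the rows treated as missing, which averaged 41502 FPKM per Kit-Sca1- library and 0.035 per Kit+Sca1- library. Counts below after rescaling to a common sum share this limit. Rescaling over rows with an estimate in every group, chosen after seeing the data, moved the median by 0.11. It gave 60.5% of calls higher and reversed 0 calls, against 79 reversed with the common sum. In bulk samples a lower level can mean fewer cells of a type or less RNA per cell, which cannot be told apart.

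**Figure D2:**
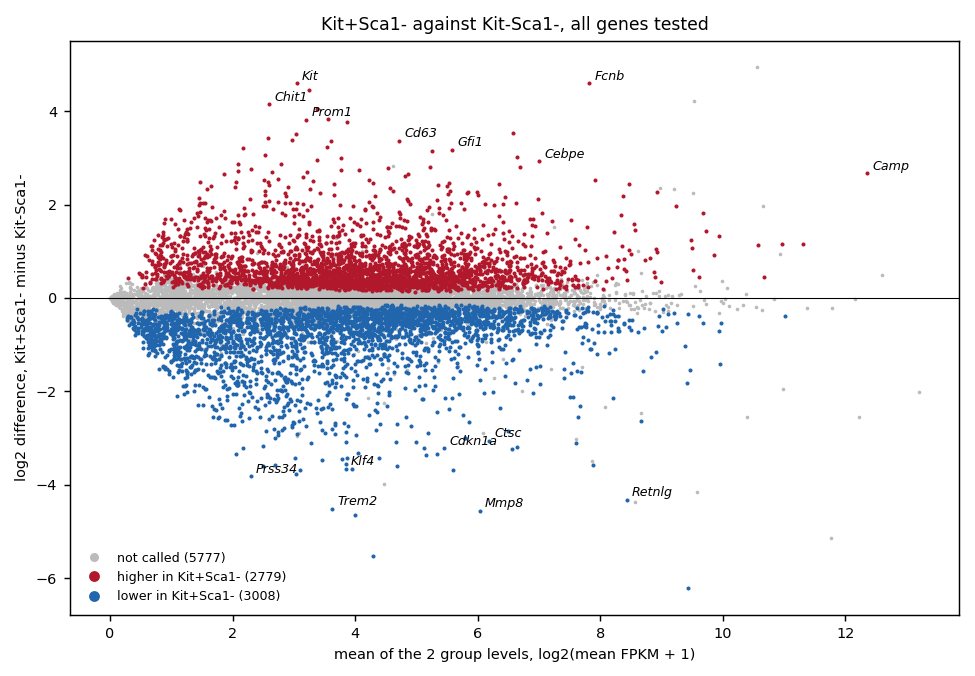
Log2 difference of mean log2(FPKM + 1), Kit+Sca1- minus Kit-Sca1-, against the mean level of both groups, log2(mean FPKM + 1), one point per gene tested. Red points were called higher in Kit+Sca1- (2779), blue points lower (3008), grey points not called (5777), and the named genes are described in the text.

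The leading genes are the 12 highest and 12 lowest log2 differences among genes that were called, did not overlap between the groups and averaged at least 5 FPKM in the higher one, without small RNA and predicted genes. FPKM means are given ± SD over the 5 libraries of a group, and log2 differences ± SE.

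The largest rises in Kit+Sca1- cells were in genes of several kinds, among them the neutrophil precursor gene Fcnb, surface and lectin genes, and enzyme genes. Fcnb (chromosome 2, 28076479 to 28084910) was at 1001, 1543, 865, 679.8 and 1334 FPKM in Kit+Sca1- libraries and 24.3, 35.6, 75.8, 30.6 and 65.4 FPKM in Kit-Sca1- libraries. Every Kit+Sca1- library stood above every Kit-Sca1- library (log2 difference 4.59 ± 0.41, limma adjusted p = 6.9e-09). Chit1, the secreted chitinase chitotriosidase, averaged 24.5 ± 5.81 FPKM in Kit+Sca1- cells and 0.424 ± 0.245 FPKM in Kit-Sca1- cells (4.14 ± 0.26). Prom1, which encodes the surface protein CD133, averaged 33.2 ± 7.25 FPKM in Kit+Sca1- against 1.48 ± 0.757 in Kit-Sca1- (3.81 ± 0.30), and Nkg7, a granule membrane protein of cytotoxic and myeloid cells, 321 ± 107 FPKM in Kit+Sca1- against 27 ± 10.2 in Kit-Sca1- (3.53 ± 0.35). Fbp1, the gluconeogenic fructose-1,6-bisphosphatase, was 3.51 ± 0.31 higher and Mogat2, an acyltransferase of diacylglycerol synthesis, 4.04 ± 0.35 higher on the log2 scale. The adhesion molecule gene Ncam1 rose by 3.38 ± 0.31 and the unconventional myosin gene Myo18b by 3.42 ± 0.31. The lectin genes Clec4b2 (3.84 ± 0.24) and Mgl2 (3.77 ± 0.36) also rose. Both belong to clusters of similar genes whose reads may have been split. The same limit holds for Chi3l4 (log2 difference 4.46 ± 0.68), a close copy of the missing Chi3l3, which was at 90.6, 13.1, 5.33, 82.4 and 68.5 FPKM in Kit+Sca1- libraries and at most 1.80 FPKM in a Kit-Sca1- library. Among the Kit+Sca1- libraries it was low in 26 and L and high in the other three.

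The largest falls included genes of maturing neutrophils, monocytes and macrophages. Mmp8 (chromosome 9, 7558429 to 7568486) was at 7.51, 8.36, 2.86, 9.01 and 46.8 FPKM in Kit+Sca1- libraries and 276, 404, 305, 147 and 207 FPKM in Kit-Sca1- libraries. The groups do not overlap, and library R was the highest of the Kit+Sca1- libraries (log2 difference -4.55 ± 0.42, limma adjusted p = 1.17e-08). Retnlg (chromosome 16, 48872608 to 48874498) was at 68.7, 56.1, 21.2, 49 and 238 FPKM in Kit+Sca1- libraries, with R again the highest, and at 1928, 1808, 1296, 730.1 and 1035 FPKM in Kit-Sca1- libraries (log2 difference -4.33 ± 0.39, limma adjusted p = 8.37e-09). Fn1, fibronectin (chromosome 1, 71585473 to 71653280), showed the largest fall, with 4.36, 1.12, 1.28, 4.01 and 0.899 FPKM in Kit+Sca1- and 64.3, 81.6, 80.9, 51.7 and 100.3 FPKM in Kit-Sca1- (log2 difference -4.64 ± 0.33, limma adjusted p = 2.56e-10). The macrophage receptor Trem2, the fractalkine receptor Cx3cr1 of patrolling monocytes and the proteoglycan versican (Vcan) fell too, with log2 differences of -4.52 ± 0.22 for Trem2, -3.68 ± 0.23 for Cx3cr1 and -3.61 ± 0.24 for Vcan. Klf4, a zinc finger factor of monocyte differentiation, averaged 3.16 ± 1.62 FPKM in Kit+Sca1- and 48.6 ± 5.58 FPKM in Kit-Sca1- (log2 difference -3.66 ± 0.20, limma adjusted p = 6.26e-12). The extracellular matrix gene Emilin2 (-3.67 ± 0.21), the ephrin receptor gene Epha2 (-3.77 ± 0.18) and Fam129b (-3.66 ± 0.18) fell as well. Prss34, a basophil and mast cell protease, and Ccl5, a chemokine of T and NK cells, completed the 12 (log2 differences -3.82 ± 0.26 and -3.59 ± 0.42) and are taken up with the other cell types. All 24 leading genes kept their direction and their call under each of the 24 alternative settings that were run. They were chosen from the same libraries as called, without overlap and with the most extreme differences, and Kit is the gate, so this is no separate support.

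**Figure D3:**
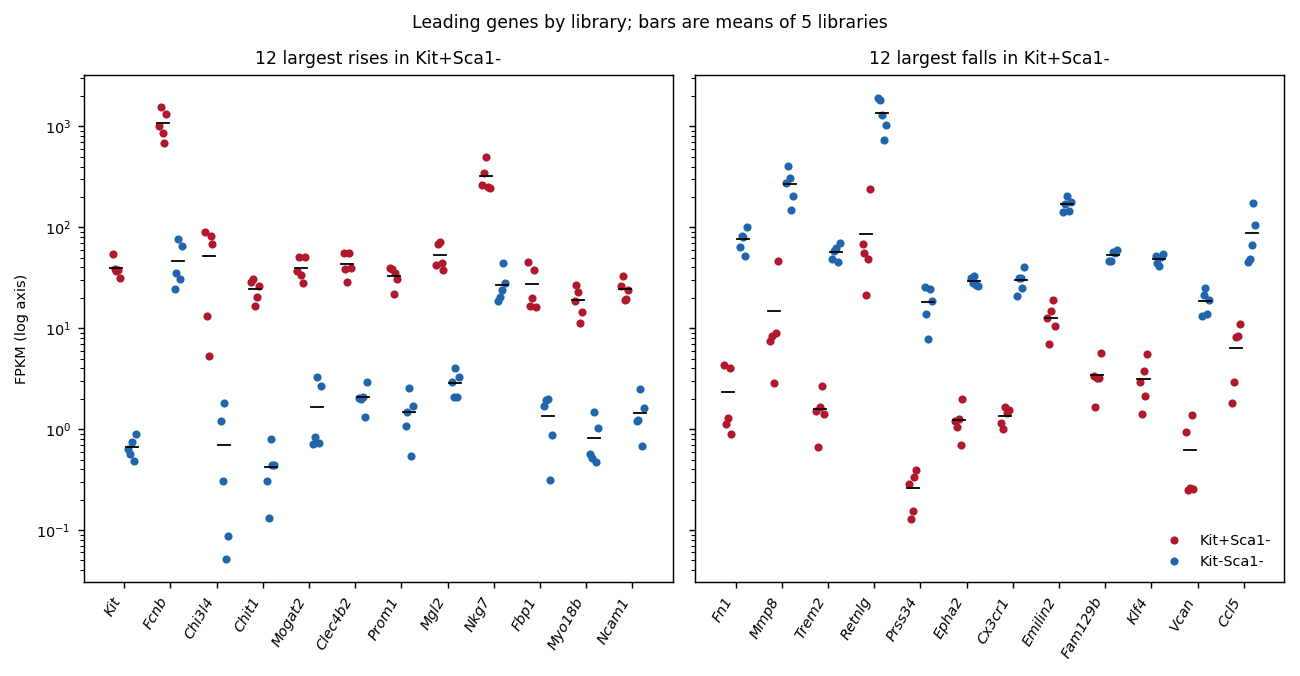
FPKM (log axis) in each library for the 12 largest rises (left) and the 12 largest falls (right), Kit+Sca1- in red to the left of Kit-Sca1- in blue, with black bars at the mean of 5 libraries. Genes were chosen to show no overlap between the groups, and Chi3l4, Mmp8 and Retnlg spread most within Kit+Sca1-.

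Primary granule and myeloblast genes were mostly higher in Kit+Sca1- cells. Of 23 tested, 16 were higher and 3 lower, with a median log2 difference of 1.32 against -0.02 over all genes, and 4 more were missing. All genes tested gave 24% higher and 26% lower. Igfbp4, an insulin-like growth factor binding protein, averaged 283 ± 36.8 FPKM in Kit+Sca1- and 34.1 ± 5.63 in Kit-Sca1- (log2 difference 3.02 ± 0.21, limma adjusted p = 1.7e-10). The protease inhibitor Serpinb1a, which blocks neutrophil elastase, averaged 703 ± 72.6 FPKM in Kit+Sca1- against 154 ± 23.9 in Kit-Sca1- (2.19 ± 0.22). Ms4a3, a marker of granulocyte-monocyte progenitors (2.27 ± 0.32), Mgst2 (2.80 ± 0.30), the granule proteoglycan serglycin (Srgn, 1.98 ± 0.21) and cathepsin G (Ctsg, 1.32 ± 0.27) were higher as well. Ctsc, cathepsin C, which activates the granule serine proteases, went the other way: it was at 23.1, 15.2, 31, 27.9 and 24.5 FPKM in Kit+Sca1- libraries and 176, 202, 212, 232 and 209 FPKM in Kit-Sca1- libraries (log2 difference -3.06 ± 0.16, limma adjusted p = 2.86e-12). The protease inhibitor Slpi (-0.71 ± 0.14) and Bex6 (-1.45 ± 0.30) were the other two that fell. Lysozyme (Lyz2) was at 1307 to 7396 FPKM in Kit+Sca1- and 1703 to 5938 FPKM in Kit-Sca1- cells and was not called (limma adjusted p = 0.73).

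Secondary and tertiary granule genes split. Of 29 tested, 12 were higher and 9 lower, with a median of 0.57, and the missing Ngp, Chi3l3, S100a8 and S100a9 add no direction. Shares over all genes were 24% higher and 26% lower. Camp, the antimicrobial peptide cathelicidin of secondary granules (chromosome 9, 109847377 to 109849456), was at 11452, 17503, 4279, 9792 and 25379 FPKM in Kit+Sca1- libraries and 1305, 1965, 3076, 926 and 2781 FPKM in Kit-Sca1- libraries, without overlap (log2 difference 2.67 ± 0.47, limma adjusted p = 6.84e-05). Its lowest Kit+Sca1- value came from library L and its highest from library R. Chi3l1 (1.81 ± 0.39), Cd177 (1.58 ± 0.38), a surface protein of neutrophil subsets, the leukotriene B4 receptor Ltb4r1 (1.56 ± 0.26), the peptidoglycan receptor Pglyrp1 (1.43 ± 0.31) and annexin A1 (Anxa1, 1.13 ± 0.30) were higher too. Lipocalin 2 (Lcn2) averaged 4031 ± 2369 FPKM in Kit+Sca1- against 1608 ± 563 in Kit-Sca1- and its ranges overlapped (log2 difference 1.16 ± 0.43, limma adjusted p = 0.0277). Its call was lost without Kit+Sca1- replicate 2, Kit+Sca1- replicate 5 or Kit-Sca1- replicate 4 (adjusted p 0.00136 to 0.0952 over all alternatives). Lactoferrin (Ltf) was not called (0.93 ± 0.55, limma adjusted p = 0.164), but was higher without Kit+Sca1- replicate 3. Lower in Kit+Sca1- were the gelatinase granule protease Mmp9 (-3.19 ± 0.41), the formyl peptide receptor Fpr1 (-3.42 ± 0.36), the chemokine receptor Cxcr2 (-1.32 ± 0.27) and, beside Mmp8 and Retnlg, the stefin genes Stfa2 (-2.36 ± 0.65) and Stfa3 (-1.77 ± 0.59), which share sequence with their neighbours. Stfa2 stood at 0.001 FPKM in 1 Kit+Sca1- library and reached 15.7 FPKM in another, and a failed estimate there was not tested. Stfa3 was not called without Kit+Sca1- replicate 3 or Kit-Sca1- replicate 2. Of the 8 tested genes for the NADPH oxidase and its partners, 6 were higher and Rac1 was lower (-0.37 ± 0.06), a fall not called after rescaling to a common sum. The proton channel Hvcn1 led with 183 ± 45.4 FPKM in Kit+Sca1- and 39.8 ± 5.27 in Kit-Sca1- (log2 difference 2.15 ± 0.22, limma adjusted p = 4.44e-08), followed by the GTPase Rac2 (0.94 ± 0.15), the catalytic subunit Cybb (0.84 ± 0.27, not called without Kit+Sca1- replicate 5) and the subunits Ncf1 (0.82 ± 0.17) and Ncf4 (0.81 ± 0.20).

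In the list of monocyte and macrophage genes every called member was lower. The separate list of red pulp macrophage genes, given below, had 2 higher, Slc40a1 and Vcam1, and 6 lower of 16. Of the 38 monocyte and macrophage genes tested, 26 were lower and 0 higher, with a median of -1.70. Among all genes tested 26% were lower and 24% higher. Csf1r, the macrophage colony-stimulating factor receptor, was at 9.93, 8.34, 13.6, 10.6 and 8.98 FPKM in Kit+Sca1- libraries and 60.6, 90.3, 146, 91.1 and 151 FPKM in Kit-Sca1- libraries (log2 difference -3.20 ± 0.23, limma adjusted p = 2.29e-10). Ccr2, which draws inflammatory monocytes out of the marrow, averaged 12.5 ± 2.79 FPKM in Kit+Sca1- against 97.6 ± 10.2 in Kit-Sca1- (log2 difference -2.89 ± 0.13, limma adjusted p = 5.6e-13). Ms4a6c (-3.22 ± 0.17), Ms4a6d (-3.42 ± 0.24), the matrix protein Tgfbi (-3.36 ± 0.25), the scavenger receptor Msr1 (-3.16 ± 0.35), the lipopolysaccharide coreceptor Cd14 (-2.69 ± 0.25), the endosomal protein Cd68 (-2.35 ± 0.18) and galectin 3 (Lgals3, -2.32 ± 0.26) fell with it. Ly6c2, an antigen of inflammatory monocytes with a near copy in Ly6c1, averaged 1159 ± 252 FPKM in Kit+Sca1- cells and 889 ± 122 FPKM in Kit-Sca1- cells (limma adjusted p = 0.251), and Sirpa and Mrc1 were not called. Ly6c2 was called higher after rescaling to a common sum (adjusted p = 0.0435). Itgax was not called (-0.75 ± 0.34, limma adjusted p = 0.0684), but was called lower with the prefix block (adjusted p = 0.0223, and 0.00167 to 0.187 over all alternatives), with the title number as a block, with array weights and without Kit+Sca1- replicate 5 or Kit-Sca1- replicate 2.

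The genes that sense microbes and recruit cells followed. Of 38 tested inflammatory mediators and sensors 23 were lower and 4 higher, with a median of -0.83. For this and the other lists of this paragraph, the shares over all genes were 26% lower and 24% higher. The inflammasome sensor Nlrp3 averaged 2.1 ± 1.24 FPKM in Kit+Sca1- and 21.2 ± 2.07 in Kit-Sca1- (log2 difference -2.91 ± 0.16, limma adjusted p = 6.26e-12), and the nucleic acid sensors Tlr13 (-2.68 ± 0.20) and Tlr8 (-2.73 ± 0.26) fell. The chemokine genes Ccl3 (-2.82 ± 0.54), Ccl6 (-2.70 ± 0.29), Ccl4 (-2.52 ± 0.22) and Ccl9 (-2.05 ± 0.23) and the cytokine gene Il1b (-2.05 ± 0.41) fell too. Tlr4, the receptor for lipopolysaccharide, moved against them, at 11.9 ± 2.18 FPKM in Kit+Sca1- against 4.38 ± 1.68 in Kit-Sca1- (log2 difference 1.30 ± 0.18, limma adjusted p = 2.68e-06), as did Casp4, Nlrc4 and Cxcl10. Of 19 chemokine and chemoattractant receptors 9 were lower and 2 higher (Ccr6 and Ccrl2, and Ccr6 was not called without Kit+Sca1- replicate 1, 4 or 5 or Kit-Sca1- replicate 2, 3, 4 or 5). Of 19 C-type lectin receptors 10 were lower and 4 higher. Clec4a3 (-2.85 ± 0.33), Clec4a1 (-2.82 ± 0.35) and Clec4d (-2.76 ± 0.22) fell, while Clec4a2 rose by 2.23 ± 0.23 and Clec12a, an inhibitory receptor of myeloid cells, averaged 485 ± 16.3 FPKM in Kit+Sca1- against 181 ± 17.6 in Kit-Sca1- (1.42 ± 0.15). Among the Clec4a genes, which are close copies, the split of reads is uncertain. Of 23 integrin and adhesion genes 11 were lower, among them Itgb7 (-2.65 ± 0.28) and the selectin ligand Selplg (-1.48 ± 0.16), and 1 (2 without Kit+Sca1- replicate 4 or Kit-Sca1- replicate 2 or 3), Vcam1, was higher at a mean of 2.29 ± 1.06 FPKM in Kit+Sca1- against 0.542 ± 0.345 in Kit-Sca1- (1.06 ± 0.34). Of 7 Fc receptor genes Fcgr2b rose (0.79 ± 0.12) and Fcgr1, Fcer1g and Fcgrt fell, the first of them with a log2 difference of -1.68 ± 0.22.

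Transcription factors of granulocyte and monocyte cells differed in both directions. Gfi1, a repressor needed for neutrophil development (chromosome 5, 107716655 to 107725805), was at 155, 141, 163, 138 and 119 FPKM in Kit+Sca1- libraries and 13.4, 15.9, 17.5, 11.9 and 16.4 FPKM in Kit-Sca1- libraries (log2 difference 3.17 ± 0.26, limma adjusted p = 1.5e-09). Cebpe, the C/EBP factor of secondary granule genes (chromosome 14, 54710363 to 54712174), was at 319, 460.2, 249, 255 and 441 FPKM in Kit+Sca1- libraries and 35, 39.1, 77.9, 22.9 and 59.1 FPKM in Kit-Sca1- libraries (log2 difference 2.93 ± 0.35, limma adjusted p = 4.43e-07). Both genes were higher in every Kit+Sca1- library than in any Kit-Sca1- library. Of 31 myeloid differentiation factors 8 were higher, a share close to the 24% over all genes, and 16 lower, beside 26% over all genes. Fli1 (1.05 ± 0.11), Cebpd (1.04 ± 0.26) and Stat3 (0.55 ± 0.10) rose with Cebpe, and Irf5 (-2.51 ± 0.25), Irf8 (-1.84 ± 0.29), Klf2 (-1.78 ± 0.25) and Zeb2 (-1.57 ± 0.16) fell with Klf4. Cebpa (0.24 ± 0.13, limma adjusted p = 0.141) and Sfpi1, which encodes PU.1 (0.09 ± 0.12, adjusted p = 0.554), were not called, though both were called higher after rescaling to a common sum, and Cebpa also without Kit+Sca1- replicate 5.

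Factors of progenitors and of MLL-fusion leukaemia included genes that rose and genes that fell. Of 29 tested, 6 were higher and 8 lower, shares close to the 24% and 26% over all genes (8 and 13 in a fit with the name prefix as a block). Myb, a driver of progenitor proliferation, was at 186, 186, 235, 199 and 128 FPKM in Kit+Sca1- libraries and 78.4, 84.2, 67.5, 74.1 and 62.8 FPKM in Kit-Sca1- libraries, without overlap (log2 difference 1.32 ± 0.18, limma adjusted p = 3.51e-06). Bcl11a (1.61 ± 0.15) and the ETS factor Erg (1.40 ± 0.25) were higher by similar amounts, and Lyl1 (0.39 ± 0.08) by less. Nfe2 rose too (0.38 ± 0.14), with the call lost without Kit+Sca1- replicate 1, Kit+Sca1- replicate 5 or Kit-Sca1- replicate 4. Gata2, a factor of stem cells, mast cells and basophils, was at 2.56, 1.51, 3.2, 2.75 and 2.01 FPKM in Kit+Sca1- libraries and 23, 16.1, 15.4, 12.1 and 10.6 FPKM in Kit-Sca1- libraries (log2 difference -2.25 ± 0.29, limma adjusted p = 9.73e-07). Meis1, the homeobox partner of Hox proteins, averaged 1.88 ± 0.435 FPKM in Kit+Sca1- against 5.78 ± 0.794 in Kit-Sca1- (log2 difference -1.24 ± 0.14, limma adjusted p = 1.24e-07), and Mef2c (-1.84 ± 0.21), Hoxa7 (-1.38 ± 0.26), Hoxa5 (-1.16 ± 0.22), Cbfa2t3 (-0.78 ± 0.13), Hoxa6 (-0.65 ± 0.20) and Pbx3 (-0.54 ± 0.11) also fell. Hoxa9 was not called (3.25 ± 1.22 FPKM in Kit+Sca1- and 5.69 ± 1.76 in Kit-Sca1-, -0.67 ± 0.28, limma adjusted p = 0.0514), but was called lower with the prefix block (adjusted p = 0.00012, and 0.00012 to 0.186 over all alternatives).

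Stem and progenitor surface and regulatory genes did not follow Kit as a group. Of 19 tested, 4 were higher and 7 lower (7 and 7 with the prefix block, and 2 higher without Kit+Sca1- replicate 4 or Kit-Sca1- replicate 4). The share higher was close to the 24% over all genes, of which 26% were lower. Cd34, the sialomucin of progenitors, was at 14.5, 6.65, 28.4, 14.2 and 16 FPKM in Kit+Sca1- libraries and 78.9, 88.1, 63.3, 66.5 and 50.3 FPKM in Kit-Sca1- libraries (log2 difference -2.16 ± 0.27, limma adjusted p = 7.4e-07), so the Kit- cells held more of it in every library. Cd48 (-1.39 ± 0.17) and Cd244 (-1.53 ± 0.24), a ligand and receptor pair of the SLAM family, and Ly6e (-1.56 ± 0.17) fell too, while Prom1 and Eltd1 (1.88 ± 0.16) rose. Of 28 tested cytokine receptors 6 were higher, Kit as the gate among them, and 13 lower. The share higher was again close to that of all genes. Beside Kit, the interferon gamma receptor chain Ifngr1 averaged 234 ± 41 FPKM in Kit+Sca1- and 110.2 ± 25.9 in Kit-Sca1- (log2 difference 1.09 ± 0.14, limma adjusted p = 1.77e-06), and Il15ra rose by 0.95 ± 0.13. Il6st (-2.34 ± 0.12), Il13ra1 (-2.23 ± 0.22), Il10ra (-2.16 ± 0.30), Il6ra (-1.53 ± 0.14) and Il17ra (-1.52 ± 0.12) fell with Csf1r. Flt3 (-0.26 ± 0.37, limma adjusted p = 0.582) and Csf2ra (0.10 ± 0.19, 0.692) were not called.

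**Figure D4:**
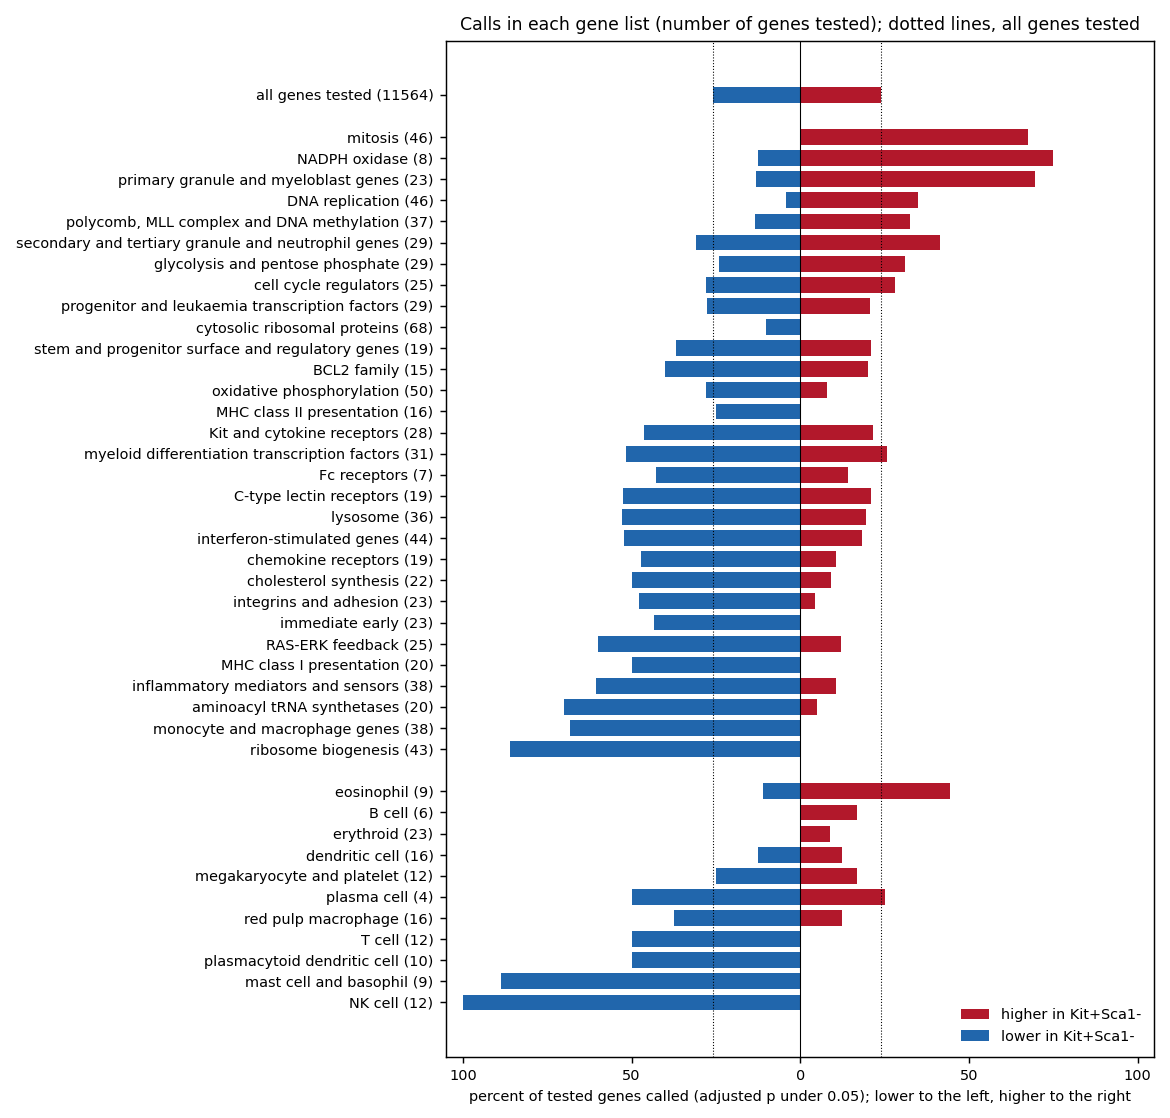
Percent of the tested genes of each list that were called higher (red, to the right) or lower (blue, to the left) in Kit+Sca1-, with the number tested in brackets. The top bar and the dotted lines give all 11564 genes tested (24% higher, 26% lower). Mitosis, NADPH oxidase and primary granule lists lie furthest to the right among the themes, and ribosome biogenesis, aminoacyl tRNA synthetase and monocyte and macrophage lists furthest to the left.

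Mitotic genes were modestly higher in Kit+Sca1- cells. Of 46 tested, 31 were higher and 0 lower with a median of 0.40, against 41 higher after rescaling to a common FPKM sum and 20 higher without Kit+Sca1- replicate 2. The spindle genes Nusap1, Spc25 and Nuf2 rose (log2 differences 0.89 ± 0.15, 0.71 ± 0.16 and 0.66 ± 0.13 in that order), and the proliferation antigen Mki67 averaged 181 ± 45.9 FPKM in Kit+Sca1- against 119 ± 13.1 in Kit-Sca1- (log2 difference 0.57 ± 0.15, limma adjusted p = 0.00311). DNA replication genes were higher in 16 of 46 and lower in 2 (Orc2 and Pold2), which became 34 and 0 after rescaling to a common sum, and 30 were higher without Kit-Sca1- replicate 4. Gins3 (0.83 ± 0.12) and the DNA ligase Lig1 (0.69 ± 0.12) led. Some cell cycle regulators changed by larger amounts, while others that were called, such as E2f1 (0.37) and Cdkn2c (0.45), did not. Cdkn1a, the CDK inhibitor p21, was at 12.8, 13.3, 13.4, 11.4 and 15 FPKM in Kit+Sca1- libraries and 182, 118, 132, 118 and 114 FPKM in Kit-Sca1- libraries (log2 difference -3.22 ± 0.15, limma adjusted p = 6.9e-13). Cyclin D1 (Ccnd1) averaged 21.9 ± 6.14 FPKM in Kit+Sca1- against 98.6 ± 16 in Kit-Sca1- (log2 difference -2.15 ± 0.22, limma adjusted p = 6.53e-08), cyclin D2 (Ccnd2, -1.22 ± 0.24) and Cdkn2a (-1.34 ± 0.26) fell, and Cdk2 (0.92 ± 0.14) rose. In this list of 25 tested genes 7 were higher and 7 lower, shares close to the 24% and 26% over all genes (12 higher after rescaling, and 4 higher without Kit-Sca1- replicate 3). Cdk6 was not called (-0.14 ± 0.30, limma adjusted p = 0.723).

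In the BCL2 family, 3 of 15 tested genes were higher and 6 lower (5 higher under quantile normalization), beside 24% and 26% over all genes. The pro-apoptotic genes Bax and Bbc3, which encodes PUMA, fell. Bax averaged 77.7 ± 15.2 FPKM in Kit+Sca1- against 213 ± 8.27 in Kit-Sca1- (log2 difference -1.46 ± 0.14, limma adjusted p = 1.49e-08), and Bbc3 2.93 ± 1.11 FPKM in Kit+Sca1- against 12.5 ± 2.51 in Kit-Sca1- (-1.80 ± 0.18). The anti-apoptotic genes Bcl2 (-1.50 ± 0.17) and Mcl1 (-0.76 ± 0.13) fell too, and Bcl2l2 (0.49 ± 0.09) and Bcl2a1b (0.85 ± 0.23) rose. Bcl2a1b is one of several near-identical copies.

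Ribosome biogenesis and aminoacyl tRNA synthetase genes were mostly lower as deposited, by amounts that depend on the scaling. Ribosome biogenesis genes were lower in 37 of 43 and higher in 0, and lower in 14 after rescaling to a common sum. Rrp9 (-1.02 ± 0.17), Grwd1 (-1.01 ± 0.17), the RNA methyltransferase Nop2 (-0.93 ± 0.14) and the helicase Ddx21 (-0.89 ± 0.17) fell most. Aminoacyl tRNA synthetases were lower in 14 of 20 and higher in 1, Dars, and after rescaling in 4 and 1. Cytosolic ribosomal protein genes, whose many processed copies make their values uncertain, were lower in 7 of 68, a smaller share than the 26% of all genes, and higher in 0 (2 to 13 lower when single libraries were left out, 2 after rescaling). Oxidative phosphorylation genes were lower in 14 of 50, a share close to the 26% of all genes, and higher in 4, beside 24% of all genes. These counts turned to 1 lower and 12 higher after rescaling to a common sum. The succinate dehydrogenase subunit Sdhb had the largest fall among them, at 94.8 ± 11.3 FPKM in Kit+Sca1- against 169 ± 15.7 in Kit-Sca1- (-0.83 ± 0.08), and the complex I subunit Ndufb3 the largest rise (0.59 ± 0.11).

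Within sugar metabolism single genes moved further than the list. Of 29 glycolysis and pentose phosphate genes 9 were higher and 7 lower. For this list and the next 2, the shares over all genes were 24% higher and 26% lower. Pfkfb3, which makes the activator of phosphofructokinase, averaged 57.6 ± 5.53 FPKM in Kit+Sca1- and 19.7 ± 2.14 in Kit-Sca1- (log2 difference 1.50 ± 0.13, limma adjusted p = 2.71e-09). The pentose phosphate enzymes Rpia (1.40 ± 0.14), Tkt (0.85 ± 0.10), Pgls (0.77 ± 0.09) and Pgd (0.56 ± 0.17) rose, and the glucose transporter Slc2a1 (-1.27 ± 0.09), Pfkp (-0.88 ± 0.13) and lactate dehydrogenase A (Ldha, -0.63 ± 0.13) fell. Cholesterol synthesis genes were lower in 11 of 22 and higher in 2 (4 and 4 after rescaling, and 7 lower without Kit+Sca1- replicate 1), with falls in Sqle (-1.15 ± 0.18) and Cyp51 (-1.09 ± 0.17). Lysosome genes were lower in 19 of 36 and higher in 7. Legumain (Lgmn, -2.68 ± 0.28) and cathepsins S (-2.85 ± 0.26) and L (-1.74 ± 0.27) fell most, while Cd63, a membrane protein of lysosomes and primary granules, was at 77.2, 93.3, 84.5, 72.8 and 88.4 FPKM in Kit+Sca1- libraries and 7.54, 6.32, 8.59, 5.87 and 7.82 FPKM in Kit-Sca1- libraries (log2 difference 3.36 ± 0.25, limma adjusted p = 3.46e-10).

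Among genes of antigen presentation, interferon response and signalling, more were called lower than higher, beside 26% lower and 24% higher over all genes. MHC class I genes were lower in 10 of 20 and higher in 0 (6 and 1 after rescaling), among them the transactivator Nlrc5 (-1.07 ± 0.13), the nonclassical class I gene H2-T22 (-0.96 ± 0.17) and the immunoproteasome subunits Psmb10 (-0.98 ± 0.11) and Psmb8 (-0.80 ± 0.13). Of 16 MHC class II genes 4 were lower, a share close to that of all genes, and 0 higher, with a median of 0.22. The 4 that fell were Ctss, March1 (-1.42 ± 0.21), Cd80 (-1.33 ± 0.15) and Cd40 (-1.32 ± 0.19), none of them a class II chain. H2-Aa was at 179 to 1236 FPKM in Kit+Sca1- against 149.6 to 629 in Kit-Sca1- (limma adjusted p = 0.289). Interferon-stimulated genes were lower in 23 of 44 and higher in 8. Oasl2 (-1.85 ± 0.23), Mx1 (-1.81 ± 0.23) and Zbp1 (-1.68 ± 0.23) fell, whereas Ifit2 averaged 15.7 ± 2.05 FPKM in Kit+Sca1- and 3.09 ± 0.27 in Kit-Sca1- (log2 difference 2.02 ± 0.11, limma adjusted p = 5.81e-12). Feedback and target genes of RAS-ERK signalling were lower in 15 of 25 and higher in 3. The ERK phosphatase gene Dusp5 (-1.82 ± 0.17), the ETS factors Etv4 (-1.58 ± 0.29) and Etv5 (-1.20 ± 0.17) and Dusp6 (-0.92 ± 0.19) fell with Ccnd1, and Spry2 (1.09 ± 0.15), Rasgrp2 (0.87 ± 0.21) and Rasa2 (0.86 ± 0.14) rose. Immediate early genes were lower in 10 of 23 and higher in 0 (18 lower with the prefix block), among them Nr4a1 (-1.83 ± 0.38), Klf2 and Fosl2 (-1.33 ± 0.23). Polycomb, MLL complex and DNA methylation genes were higher in 12 of 37 and lower in 5 (20 and 1 after rescaling), with rises in Pcgf5 (1.54 ± 0.13) and Aff1 (1.15 ± 0.16).

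Markers of other cell types differed between the gates, and their part in the results above was not tested. Over all genes 26% were lower. A member that passed the filter only through groups where it is high had to differ, so the counts of these lists are descriptions. NK cell genes were lower in 12 of 12 tested, and the 14 rows listed summed to 10.5 to 29.1 FPKM in Kit+Sca1- libraries and 63.9 to 219 FPKM in Kit-Sca1- libraries. Granzyme A (Gzma) was at 1.65, 3.07, 5.85, 4.29 and 4.97 FPKM in Kit+Sca1- and 18, 35.6, 51.9, 111 and 55.8 FPKM in Kit-Sca1- libraries (log2 difference -3.32 ± 0.48, limma adjusted p = 5.54e-06), and Ccl5 at 1.82, 2.91, 8.1, 8.32 and 11 FPKM in Kit+Sca1- and 45.6, 48.2, 66.2, 173 and 105 FPKM in Kit-Sca1- libraries. Library L was the highest Kit-Sca1- library for both. Of T cell genes 6 of 12 were lower, among them Cd28 (-1.58 ± 0.17) and Lck (-1.50 ± 0.24). Summed over 18 rows they came to 13.7 to 36.5 FPKM in Kit+Sca1- and 29.7 to 38.3 in Kit-Sca1-, with Cd3e, Cd2 and Cd8b1 under 0.1 FPKM in both, and Cd3d was not called (-0.31 ± 0.40). Mast cell and basophil genes were lower in 8 of 9, and 15 rows summed to 72.5 to 122 FPKM in Kit+Sca1- and 144 to 229 in Kit-Sca1-. Prss34 was at 0.288, 0.129, 0.156, 0.339 and 0.398 FPKM in Kit+Sca1- libraries and 25.6, 13.9, 7.88, 24.4 and 18.5 FPKM in Kit-Sca1- libraries (log2 difference -3.82 ± 0.26, limma adjusted p = 1.14e-10), and Mcpt8, a basophil protease, averaged 15.7 ± 9.17 FPKM in Kit+Sca1- against 58.6 ± 21.1 in Kit-Sca1- (-1.98 ± 0.38). The mast cell proteases Mcpt4 and Tpsb2 were under 0.1 FPKM in both groups. The mast cell protease Cma1 was called lower, with a mean under 0.1 FPKM in Kit+Sca1- but not in Kit-Sca1-. Plasmacytoid dendritic cell genes were lower in 5 of 10, with sums of 45.3 to 72.9 FPKM in Kit+Sca1- and 127 to 161 in Kit-Sca1-.

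Eosinophil genes moved the other way, higher in 4 of 9 and lower in 1, Alox15 (2 lower without Kit+Sca1- replicate 5 or Kit-Sca1- replicate 4). They summed to 61.4 to 136 FPKM in Kit+Sca1- and 17.3 to 52.0 in Kit-Sca1-. Beside the counts of this paragraph, 24% of all genes were higher and 26% lower. Eosinophil peroxidase (Epx) was at 19.2, 7.78, 20.4, 5.07 and 15.1 FPKM in Kit+Sca1- libraries and 2.73, 1.56, 1.08, 0.335 and 1.49 FPKM in Kit-Sca1- libraries (log2 difference 2.49 ± 0.48, limma adjusted p = 0.000175), and Siglec5 (2.38 ± 0.20), Prg2 (2.08 ± 0.47) and Prg3 (1.37 ± 0.38) rose with it. The eosinophil receptor gene Il5ra was under 0.1 FPKM in both groups. Red pulp macrophage genes were lower in 6 of 16 and higher in 2, the iron exporter Slc40a1 (1.94 ± 0.24) and Vcam1, with sums of 214 to 332 FPKM in Kit+Sca1- and 235 to 444 in Kit-Sca1-. Of 6 B cell genes Cd37 was higher, with Pax5, Ebf1 and Cr2 under 0.1 FPKM in both groups. Of 4 plasma cell genes Xbp1 was higher and Prdm1 and Irf4 lower, and Igj and Tnfrsf17 were under 0.1 FPKM in both. Erythroid genes were higher in 2 of 23, Xk and Tfrc, and lower in 0 (8 lower with the prefix block). Tfrc was not called without Kit+Sca1- replicate 1, 3 or 4 or Kit-Sca1- replicate 2, 3 or 5. The list summed to 102 to 181 FPKM in Kit+Sca1- and 73.7 to 135 in Kit-Sca1-. Of 16 dendritic cell genes 2 were higher and 2 lower (1 or 2 higher and 1 to 4 lower when single libraries were left out), with sums of 606 to 1524 FPKM in Kit+Sca1- and 438 to 830 in Kit-Sca1-. Megakaryocyte and platelet genes were higher in 2 of 12 and lower in 3 (5 with the prefix block), with sums of 26.7 to 56.3 FPKM in Kit+Sca1- and 89.1 to 138 in Kit-Sca1-. Of 14 endothelial and stromal genes only Pecam1 and Vwf passed the filter on low values, and Pecam1 fell (-1.05 ± 0.18).

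Set beside the other sorted groups, the Kit+Sca1- cells stood apart from the Kit+Sca1+ cells too. These comparisons share libraries with the one above. In limma, 6368 of 11564 genes (55.1%) differed between Kit+Sca1+ and Kit+Sca1-, and 5883 of 11597 (50.7%) between Kit-Sca1- and MacHigh. Kit itself was at 34.3 ± 7.05 FPKM in Kit+Sca1+ (n = 4) and 5.79 ± 0.844 in MacHigh (n = 5), so Kit-Sca1- cells, at 0.668 ± 0.158, held the lowest level of the sorted groups. Fcnb was at 298 ± 174 FPKM in Kit+Sca1+, log2 difference -2.01 ± 0.44, limma adjusted p = 0.000472 against Kit+Sca1-, and at 121 ± 72.8 in MacHigh. Gfi1 (46.1 ± 23.5 FPKM in Kit+Sca1+, log2 difference -1.74 ± 0.27, limma adjusted p = 1.16e-05), Cebpe (81.4 ± 40.3 FPKM, log2 difference -2.16 ± 0.37, limma adjusted p = 3.85e-05) and Myb (93.4 ± 23.9 FPKM, log2 difference -1.0 ± 0.19, limma adjusted p = 0.000146) were likewise lower in Kit+Sca1+ than in Kit+Sca1-. Among the sorted groups these 4 genes were at their highest mean in Kit+Sca1-. They were named for being higher in the same Kit+Sca1- libraries, so this is a description. Meis1 was higher in Kit+Sca1+, at 6.35 ± 1.73 FPKM (log2 difference 1.33 ± 0.14, limma adjusted p = 6.8e-08), as was Csf1r, at 92.1 ± 35.2 FPKM (log2 difference 2.98 ± 0.24, limma adjusted p = 7.4e-10).

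The Kit-Sca1- cells did not all resemble MacHigh cells in the genes that set them apart from Kit+Sca1-. Klf4 (53.8 ± 11.4 FPKM in MacHigh, log2 difference -0.12 ± 0.20, limma adjusted p = 0.638) and Cdkn1a (136 ± 33.3 FPKM in MacHigh, log2 difference -0.02 ± 0.15, limma adjusted p = 0.918) were not called between Kit-Sca1- and MacHigh. Fn1 (241 ± 100.4 FPKM in MacHigh, log2 difference -1.59 ± 0.33, limma adjusted p = 0.000389) and Ccr2 (218 ± 27.8 FPKM, log2 difference -1.15 ± 0.13, limma adjusted p = 3.61e-07) were below MacHigh in Kit-Sca1- cells. Mmp8 (79.3 ± 5.55 FPKM in MacHigh, log2 difference 1.66 ± 0.42, limma adjusted p = 0.00234), Retnlg (359 ± 41.9 FPKM, log2 difference 1.84 ± 0.39, limma adjusted p = 0.000508), Gata2 (4.58 ± 1.45 FPKM, log2 difference 1.56 ± 0.29, limma adjusted p = 0.00011), Cd34 (12.4 ± 2.95 FPKM, log2 difference 2.39 ± 0.27, limma adjusted p = 3.5e-07) and Gzma (0.713 ± 0.554 FPKM, log2 difference 4.84 ± 0.48, limma adjusted p = 7.07e-08) were higher in Kit-Sca1- than in MacHigh. For these 5 genes Kit-Sca1- had the highest mean of the sorted groups. They too were named for being higher in the same Kit-Sca1- libraries, so this is a description.

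**Figure D5:**
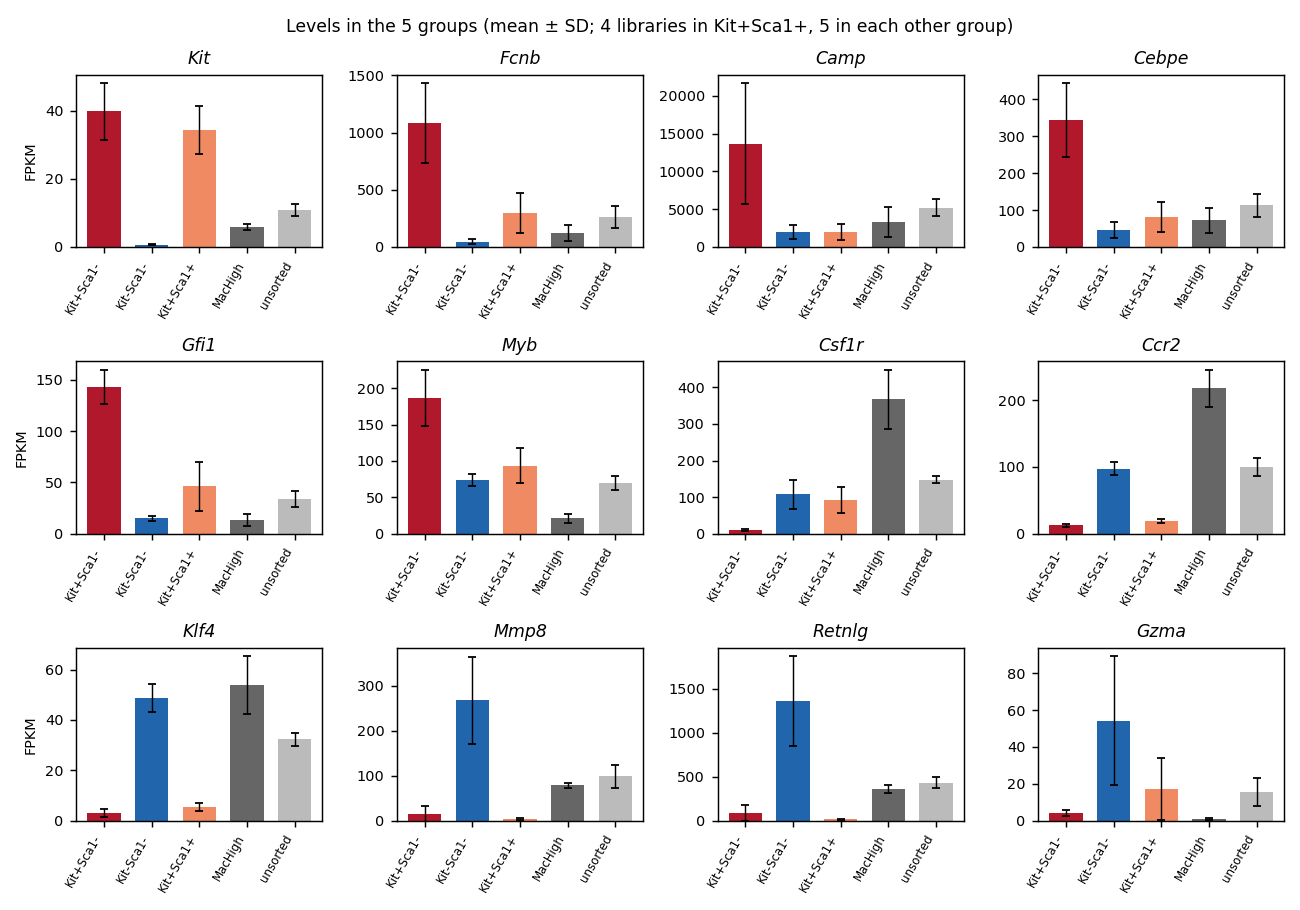
Mean FPKM of 12 genes in the 5 groups, with error bars of 1 SD (4 libraries in Kit+Sca1+ and 5 in each other group). Kit is high in both Kit+ groups, Fcnb, Camp, Cebpe, Gfi1 and Myb are highest in Kit+Sca1-, Csf1r and Ccr2 are highest in MacHigh, and Mmp8, Retnlg and Gzma are highest in Kit-Sca1-.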

How the data were processed

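RNA-seq of sorted leukaemia cells was deposited by the authors as 1 table of FPKM with 23361 gene rows and 1 column per library, and 0 value columns were left without a sample. The submitters' processing notes name TopHat2 2.0.4, Cuffdiff and the build mm10. A version of Cuffdiff, the gene annotation and any scaling between libraries are not given in the sources used here. That the values are FPKM rests on the name of the deposited table and on their range.

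Values were taken as log2(FPKM + 1). Rows with at least 1 FPKM in at least 4 of the 24 libraries were kept, and a row at 0.001 throughout one group but at 5 FPKM or more throughout another was set to missing in the first. limma 3.58.1 (R 4.3.3) fitted a linear model with the 5 groups over the 24 libraries, with a variance trend, and p-values were Benjamini-Hochberg adjusted over all 11564 genes, with calls at an adjusted p under 0.05. Itgam and Ly6a were tested by exact two-sided permutation of the 10 libraries. The limma script was tested on simulated data. Coordinates and promoters come from RefSeq genes of GRCm38.p6, matched by symbol (23201 of 23361 rows), promoters were searched on both strands, and Python 3.11.15 with matplotlib 3.10.9 drew the figures.

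The 43 gene lists hold 1040 distinct genes, of which 946 were tested, 79 did not pass the filter on low values, 11 were missing and 4 had no row. A gene that passed the filter only through the group where it is high had to differ, so shares of tested genes are descriptions. Some single genes are not reported here. Members and lists were chosen with earlier results of these data known. Genes named are the sort markers, the 12 highest and 12 lowest differences (as defined in the results), from each list the 3 called members with the largest moderated t in each direction and the 2 most abundant, and further list members where a count is split.

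Sample name prefixes recur across the groups and mark 4 pairs. Deviations from group means correlated at over 0.1 in all 4 pairs (mean 0.38, against -0.07 for other pairs), so the prefix was used as a block in an alternative fit. Title replicate numbers did not pair the libraries (2 of 5 pairs over 0.1).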

Additional observations from a re-analysis of the deposited data

Results flagged for a closer look

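Each gene named in the results was checked for a library that stood far from the other 4 of its group on the log2(FPKM + 1) scale, by the gap to the nearest value as a share of the group's range. Of 442 groups of 5 libraries (221 genes, 2 gates) 16 had such a library, where chance gives about 1 in 20.

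Kit+Sca1- replicate 2 was the distant library for 6 of the 16. It was low for Bcl2 at 5.40 FPKM, against 7.64 to 8.14 in the other Kit+Sca1- libraries, for Bex6 at 6.74 FPKM against 17.3 to 20.9, and for Hoxa9 at 1.17 FPKM against 3.24 to 4.17. It was also low for Mef2c at 4.67 FPKM against 9.81 to 12.2 and for Ms4a6c at 14.7 FPKM against 29.5 to 38.5, and high for Xk at 17.6 FPKM against 10.7 to 11.9. Kit+Sca1- replicate 5 was high for Ccr2 at 17.4 FPKM against 10.6 to 11.6, for March1 at 12.5 FPKM against 3.51 to 5.19 and for Rac1 at 188 FPKM against 160.0 to 165. Kit+Sca1- replicate 3 was low for Csf2rb at 60.3 FPKM against 76.2 to 80.1 and high for Siglec5 at 19.6 FPKM against 14.4 to 15.6.

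Among the Kit-Sca1- libraries, replicate 3 was high for Mll-AF9 at 9.16 FPKM against 7.37 to 7.81 and low for Pgls at 99.0 FPKM against 117 to 123. Replicate 4 was low for Klf2 at 19.4 FPKM against 38.1 to 46.4 and for Pglyrp1 at 248 FPKM against 522 to 653, and replicate 5 was high for Fcgrt at 18.1 FPKM against 8.14 to 9.50.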

How the results depend on the processing

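The 24 alternatives were other pseudocounts, filters, scalings, variance models and sample sets, blocks, and each of the 10 libraries left out. For 541 called genes (the lists, the leading sets and the NRAS row), 12292 of 12926 results kept direction and call, 631 lost the call and 3 changed direction. The total of called genes ran from 4894 to 6942, within 1.5 times of 5787.

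Scaling mattered most. Rescaled to the same FPKM sum, 4280 genes were higher and 1673 lower, and of the 5787 called genes 79 reversed and 4452 kept their call and direction. Small differences of the called genes Csf2rb (0.018), Ndufa8 (0.019) and Qars (0.012) turned positive and were not called, and of genes not called those of Cdk6 (0.085), Lyz2 (0.014), Mrc1 (0.11), Itgam (0.16) and Ly6a (0.050). A rescaling over rows with an estimate in every group, chosen after seeing the data, gave 60.5% of calls higher. It kept the call and direction of 4837 of the 5787 called genes and reversed 0. The Mrc1 difference, near 0 and not called, was 0.041 there, 0.0026 with a pseudocount of 0.1, 0.050 with the prefix block and 0.17 when libraries were quantile normalized. The cause of the unequal sums was not tested.

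With the replicate block by name prefix, 3370 genes were higher and 3572 lower (6942 in all). The replicate block by title number gave 3040 and 3305 (6345). List counts that the prefix block moved by over 1.5 times are given with the lists, and for cytosolic ribosomal proteins it gave 13 lower and 1 higher.

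Leaving out single libraries gave 2508 to 2903 genes higher and 2722 to 3137 lower. Marker differences that were not called ran from -0.27 to 0.13 for Itgam and -0.17 to 0.081 for Ly6a, and those of Flt3 from -0.63 to 0.054, Cd3d from -0.61 to 0.021, Cdk6 from -0.30 to 0.081, Lyz2 from -0.58 to 0.048, Mrc1 from -0.11 to 0.074 and Sfpi1 from -0.010 to 0.17. With no counts, depth and counting error per gene could not be given.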
